A study of Mus musculus with 12 samples.

Results

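The genes of MHC class II antigen presentation were followed in the colon of male mice of 4 genotypes: the double knockout lacking IL4i1 and LAO1, the LAO1 knockout, the IL4i1 knockout and the wild type. Members were taken by gene symbol from a list of 10 genes, and 9 of them were measured among the 19505 named genes of the array: H2-Aa, H2-Ab1, H2-Eb1, H2-DMa, H2-DMb1, H2-DMb2, H2-Oa, H2-Ob and Ciita. Cd74 was not analysed here. Each genotype was represented by 3 Affymetrix arrays of total RNA from colonic tissue called healthy in the labels, from animals between 12 and 16 weeks old. Both deleted genes encode secreted L-amino acid oxidases, and the study asked what their joint loss does to the colon, where it names inflammation. The strain, the alleles and the kinship of the animals are not given in the sources used here.

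MHC class II molecules are pairs of an alpha and a beta chain that carry peptides of proteins taken up by the cell to the cell surface, where CD4+ T cells read them. They are made at a steady level by dendritic cells, macrophages and B cells, and other cells, including gut epithelium, can make them after exposure to interferon gamma. H2-Aa and H2-Ab1 encode the alpha and beta chains of the I-A molecule, and H2-Eb1 the beta chain of I-E. H2-DMa, H2-DMb1 and H2-DMb2 encode chains of H2-M, which loads peptide onto class II molecules in endosomes. H2-Oa and H2-Ob encode H2-O, an inhibitor of H2-M best known from B cells. Ciita encodes the coactivator that switches class II genes on; it binds no DNA itself but sits on factors bound to the X and Y boxes of their promoters.

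Of the measured members, 8 lie on chromosome 17 within a run of 13 protein-coding genes in the RefSeq gene table (assembly GRCm38.p6), in the order H2-Oa, H2-DMa, H2-DMb2, H2-DMb1, H2-Ob, H2-Ab1, H2-Aa and H2-Eb1. The class I processing genes Psmb9, Tap1, Psmb8 and Tap2 stand between H2-DMb1 and H2-Ob, and Ciita lies on chromosome 16. RefSeq promoter windows (GRCm38.p6), running from 250 bases before to 50 bases after a gene's start, were given for 7 of the 9 members. They are shown because the members differ in whether they moved together, and the boxes through which CIITA acts can be set beside that. In each stretch of 60 bases, written 5′ to 3′ on the gene's strand, capitals mark the letters TGATTGG (Y), TGACGTCA (X2), and AAC followed after any 2 bases by ATGATG (X), searched on both strands.
H2-Aa (chr17:34287859-34287918, minus strand): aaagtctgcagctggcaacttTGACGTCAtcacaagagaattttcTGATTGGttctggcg
H2-Eb1 (chr17:34305761-34305820, plus strand): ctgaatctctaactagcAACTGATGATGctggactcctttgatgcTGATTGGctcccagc
H2-DMb1 (chr17:34153083-34153142, plus strand): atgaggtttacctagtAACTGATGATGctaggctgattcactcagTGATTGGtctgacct
H2-DMb2 (chr17:34145112-34145171, plus strand): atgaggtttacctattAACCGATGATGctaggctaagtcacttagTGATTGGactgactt
H2-Oa (chr17:34092289-34092348, plus strand): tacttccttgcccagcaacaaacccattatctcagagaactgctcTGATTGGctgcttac
H2-Ob (chr17:34238801-34238860, plus strand): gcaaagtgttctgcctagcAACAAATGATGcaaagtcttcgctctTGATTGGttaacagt

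The Y letters began between 45 and 92 bases before the annotated start in these 6 genes. Counted from first letter to first letter, X stood 26 to 29 bases upstream of Y in H2-Eb1, H2-DMb1, H2-DMb2 and H2-Ob, and X2 stood 24 bases upstream of it in H2-Aa. Of the searched letters, H2-Oa held Y only, and neither window of H2-DMa held any. Boxes that differ from these letters were not searched for, so a missing match does not show that a gene lacks the box. Among all 32851 windows of the table, 7.82% held Y, 0.137% held X and 1.79% held X2, and X and Y stood together in 9 windows, of which 4 belonged to members. The letters were chosen after these promoters had been read, so the share among members is no test. H2-DMb1 and H2-DMb2 are neighbours with alike sequences, equal at 53 of the 60 bases printed, and nothing in the sources says whether their probes tell the transcripts apart.

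The deposited values are log2 expression levels for 22206 probes, from 1.72 to 19.93, with array medians between 5.42 and 5.49 and pairwise correlations from 0.964 to 0.99. The only Lao1 probe was dim (2.64 to 3.56 over all arrays) and checked nothing, and Il4i1 was not analysed here, so the genotypes rest on the labels. Of the colon markers, the goblet cell mucin Muc2 lay at the top of the scale on every array (19.91 to 19.93) and the intestinal factor Cdx2 between 11.61 and 13.55, while the posterior factors Hoxb13 (2.71 to 7.39) and Hoxd13 (2.73 to 4.81) were low on some or all arrays. Of 9 colon markers, 0 passed by limma in the double knockout against the wild type, and 0 had an unadjusted p under 0.05; their median log2 difference was -0.65, with the water channel gene Aqp8 at -1.70 (adjusted p = 0.691). Double knockout replicate 1 stood apart by the inflammation marker Lcn2 (9.81, others 3.17 to 3.94), replicate 2 by the pancreatic enzyme gene Cpa1 (18.12, others 4.21 to 5.48), and IL4i1 knockout replicate 2 on the first principal component (68.94, others up to 20.75). Results are therefore also given without these arrays. In bulk tissue, fewer cells of a type and less RNA per cell cannot be told apart. Levels of different probes are not compared with each other.

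By mean level, both I-A chains and the beta chain of I-E were highest in the double knockout and lowest in the single knockouts. The wild type lay between them. H2-Aa was at 13.39, 12.76 and 13.73 in the double knockout, 11.76, 9.93 and 11.14 in LAO1 knockout colons, 11.1, 9.35 and 10.5 in IL4i1 knockout colons, and 11.65, 11.73 and 11.98 in wild type colons. All 3 double knockout arrays lay above the other 9, and the single knockouts were the more scattered genotypes. H2-Ab1 was at 12.22, 11.78 and 12.65 in the double knockout, 10.47, 9.01 and 10.35 in LAO1 knockout colons, 10.16, 8.94 and 9.38 in IL4i1 knockout colons, and 10.99, 10.83 and 10.77 in wild type colons. Here the wild type formed a narrow band that overlapped no other genotype. H2-Eb1 was at 11.82, 11.05 and 11.68 in the double knockout, 9.77, 9.06 and 9.33 in LAO1 knockout colons, 9.6, 8.8 and 9.07 in IL4i1 knockout colons, and 10.84, 10.23 and 10.41 in wild type colons. Again every double knockout array was above, and every single knockout array below, all wild type arrays.

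The H2-M chains H2-DMa and H2-DMb1 had the same order at the top. H2-DMa was at 7.56, 6.11 and 7.21 in the double knockout, 5.59, 3.68 and 4.63 in LAO1 knockout colons, 5.45, 4.56 and 4.4 in IL4i1 knockout colons, and 5.71, 5.89 and 5.9 in wild type colons. H2-DMb1 was at 10.93, 10 and 10.7 in the double knockout, 8.85, 7.16 and 7.59 in LAO1 knockout colons, 9.14, 6.62 and 7.38 in IL4i1 knockout colons, and 8.49, 8.47 and 8.57 in wild type colons. For both genes the double knockout did not overlap any other genotype, while in each single knockout replicate 1 lay above the other replicates. The SD of H2-DMb1 was 0.48 for the double, 0.88 for the LAO1 and 1.29 for the IL4i1 knockout, against 0.05 for the wild type (n = 3 each). The fit shares 1 spread over the genotypes, so for this gene it is wide for the wild type and narrow for the IL4i1 knockout.

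H2-DMb2 differed from its neighbour H2-DMb1 in the order of the genotypes. It was at 6.32, 6.09 and 7.43 in the double knockout, 7.52, 4.92 and 5.63 in LAO1 knockout colons, 6.87, 3.34 and 5.43 in IL4i1 knockout colons, and 5.38, 5.53 and 5.6 in wild type colons. Its highest value belonged to LAO1 knockout replicate 1, and the double knockout overlapped both single knockouts. Over the 12 arrays, which share their genotypes, H2-DMb2 had r = 0.747 with H2-DMb1, and r = 0.914 once the genotype means were removed.

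The H2-O genes showed no such order. H2-Oa lay between 3.09 and 3.8 on all arrays, low on the scale of the table: 17.1% of all probes had a lower mean. H2-Ob was at 4.48, 4.61 and 5.29 in the double knockout, 5.03, 4.38 and 4.76 in LAO1 knockout colons, 6.25, 4.45 and 4.56 in IL4i1 knockout colons, and 4.54, 4.23 and 4.25 in wild type colons. IL4i1 knockout replicate 1 alone stood high, and the other genotypes overlapped.

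Ciita, the switch of the class, was at 8.2, 6.88 and 8.12 in the double knockout, 6.77, 5.16 and 6.13 in LAO1 knockout colons, 6.58, 5.23 and 5.35 in IL4i1 knockout colons, and 6.32, 6.02 and 6.92 in wild type colons. Double knockout replicates 1 and 3 lay above all other arrays, and replicate 2 fell just under the highest wild type array. In all, 5 of the 9 members had every double knockout array above the other 9 arrays, as did 1.04% of all probes.

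**Figure D1:**
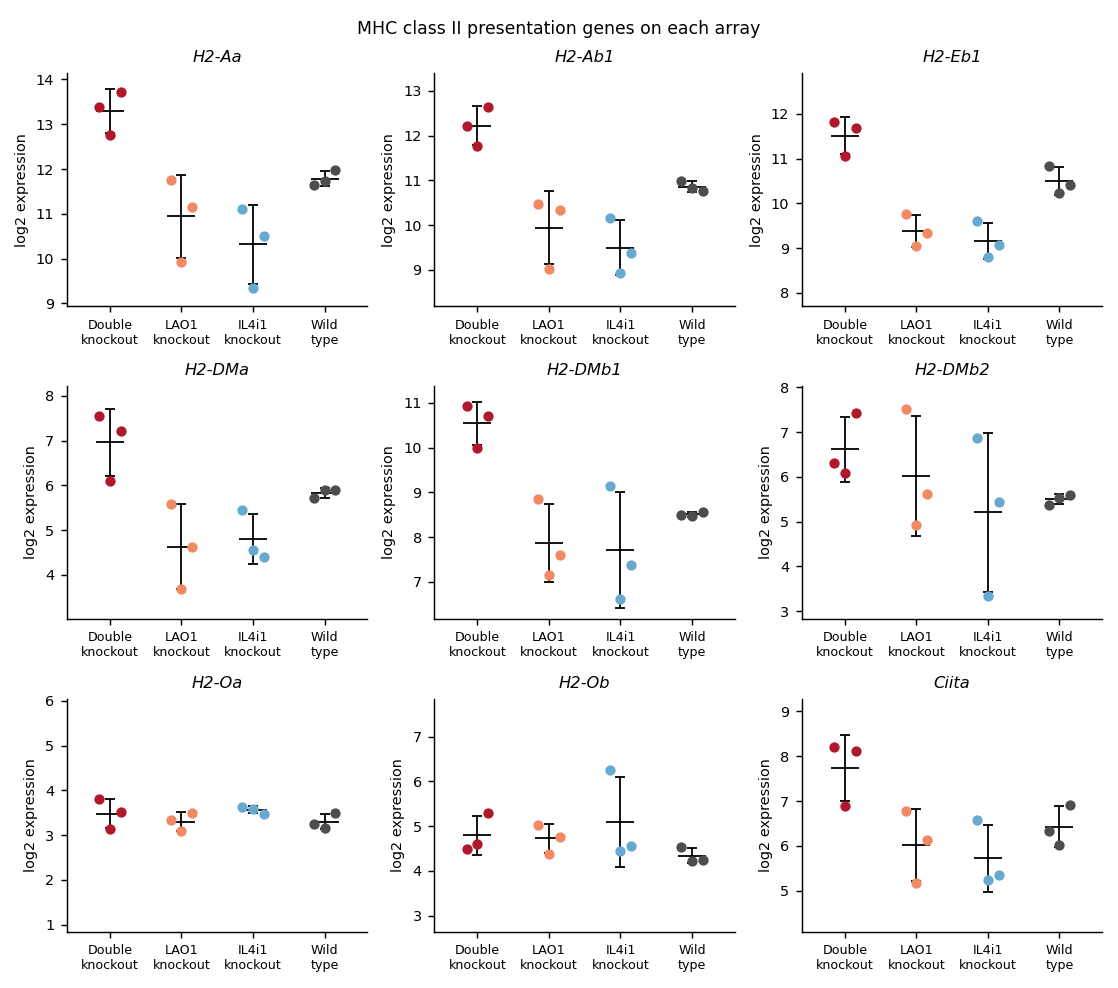
Log2 expression of each of the 9 genes on the 12 arrays, by genotype (points are arrays, bars the mean and SD, n = 3; the panels share a height of 5.2 log2 units but differ in level). The double knockout lies above all other arrays for H2-Aa, H2-Ab1, H2-Eb1, H2-DMa and H2-DMb1, and H2-Oa and H2-Ob show no such order.

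Whether the combined loss of the enzymes went with a difference from the wild type was asked first. In the double knockout against the wild type, the 9 members had a median log2 difference of 1.13, where the median of all probes was 0.00. H2-DMb1 averaged 10.54 ± 0.48 in the double knockout and 8.51 ± 0.05 in the wild type (SD, n = 3 each), a 4.09-fold higher level. H2-Aa stood 2.84-fold, H2-Ab1 2.56-fold, Ciita 2.49-fold, H2-DMa 2.18-fold and H2-Eb1 2.03-fold higher. H2-DMb2 stood at 1.11 (95% interval -0.53 to 2.75), H2-Ob at 0.45 (-0.41 to 1.32) and H2-Oa at 0.18 (-0.27 to 0.64) on the log2 scale.

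None of these differences passed limma's test over all probes (0 of 9, against 0.0225% of all probes). The log2 difference was 2.03 for H2-DMb1 (SE 0.54, adjusted p = 0.393), 1.51 for H2-Aa (SE 0.47, adjusted p = 0.500) and 1.02 for H2-Eb1 (SE 0.29, adjusted p = 0.406). At an unadjusted p under 0.05, 6 of 9 stood higher, against 3.63% of all probes, and 6 of 9 had groups that did not overlap, against 5.68%. All 9 differences were positive in each run that left out 1 array, and 0 members passed in any of them. Since the members vary together from array to array, their counts are not independent.

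The effect of each loss alone was asked next. In the LAO1 knockout against the wild type the median of the members was -0.64, and in the IL4i1 knockout against the wild type it was -0.80. The first was -1.14 without LAO1 knockout replicate 1 and -0.29 without replicate 2, and the second -1.35 without IL4i1 knockout replicate 1 and -0.46 without replicate 2. H2-Eb1 averaged 9.39 ± 0.36 in the LAO1 knockout, 9.16 ± 0.41 in the IL4i1 knockout and 10.49 ± 0.31 in the wild type. Its log2 difference from the wild type was -1.11 without LAO1 (SE 0.29, adjusted p = 1) and -1.34 without IL4i1 (SE 0.29, adjusted p = 0.351).

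By limma's test 0 of 9 members passed in either single knockout, against 0.0045% and 0.0135% of all probes. In the LAO1 knockout 3 members (H2-Eb1, H2-DMa and H2-Ab1) had an unadjusted p under 0.05 in the lower direction, against 1.57% of all probes, and these 3 did not overlap the wild type (all arrays lower, 3.86% of all probes). Without LAO1 knockout replicate 2, which was the lowest of its genotype for most members, 1 was left. In the IL4i1 knockout the 4 members H2-Eb1, H2-Ab1, H2-Aa and H2-DMa stood lower at that level, against 4.34% of all probes, and without overlap, against 5.16%. The differences of H2-Aa and H2-Ab1 were -1.47 and -1.37 there. H2-Ob stood at 0.75 (95% interval -0.12 to 1.61) in the IL4i1 knockout. Both single knockouts were set against the same 3 wild type arrays.

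The double knockout was then set against each single knockout, which asks what the second loss adds. Against the IL4i1 knockout, 4 of 9 members rose, against 0.387% of all probes called higher. H2-Aa rose 7.87-fold (log2 2.98, SE 0.47, adjusted p = 0.0120), H2-DMb1 7.11-fold (2.83, SE 0.54, adjusted p = 0.0412), H2-Ab1 6.60-fold (2.72, SE 0.39, adjusted p = 0.00578) and H2-Eb1 5.13-fold (2.36, SE 0.29, adjusted p = 0.00147), all by limma over all probes. H2-DMa stood 2.16 higher (SE 0.46, adjusted p = 0.0635) and Ciita 2.01 higher (SE 0.47, adjusted p = 0.109), neither past the threshold. All 3 double knockout arrays lay above all IL4i1 knockout arrays for these 6 genes, a pattern seen in 6.05% of all probes, and the same 6 had an unadjusted p under 0.05, against 5.17%. H2-Ob stood at -0.29 (95% interval -1.16 to 0.57) and H2-Oa at -0.08 (-0.54 to 0.37).

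Against the LAO1 knockout, 2 of 9 members rose, against 0.122% of all probes. H2-Ab1 averaged 12.22 ± 0.44 in the double knockout and 9.94 ± 0.81 in the LAO1 knockout, and H2-Eb1 11.52 ± 0.41 and 9.39 ± 0.36 in the same order of groups (SD, n = 3 each). Their log2 differences were 2.27 (SE 0.39, adjusted p = 0.0395) and 2.13 (SE 0.29, adjusted p = 0.00737). H2-DMb1 stood 2.68 higher (adjusted p = 0.101), H2-Aa 2.35 (0.0940), H2-DMa 2.33 (0.0915) and Ciita 1.71 (0.359), not past the threshold. These 6 genes had groups without overlap, as did 6.25% of all probes in that direction, and an unadjusted p under 0.05, against 3.51%. H2-DMb2, at 0.59, had a 95% interval of -1.05 to 2.23.

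These calls depended on single arrays. Against the LAO1 knockout, 0 members passed without LAO1 knockout replicate 2 or 3 or without double knockout replicate 1 or 3, with adjusted p from 0.0508 to 0.0578 for H2-Eb1 and from 0.0984 to 0.182 for H2-Ab1, and 3 passed without double knockout replicate 2. Against the IL4i1 knockout, H2-Ab1 and H2-Eb1 passed in every run (12 of 12). H2-Aa failed without double knockout replicate 1 (adjusted p = 0.0586) or 3 (0.0562), and H2-DMb1 without those (0.190 and 0.125) or IL4i1 knockout replicate 2 (0.135) or 3 (0.154). Without double knockout replicate 2, the array with the pancreatic gene, 6 members passed, and without IL4i1 knockout replicate 2, 3 did. The comparisons with the wild type and with each single knockout share the double knockout arrays.

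**Figure D2:**
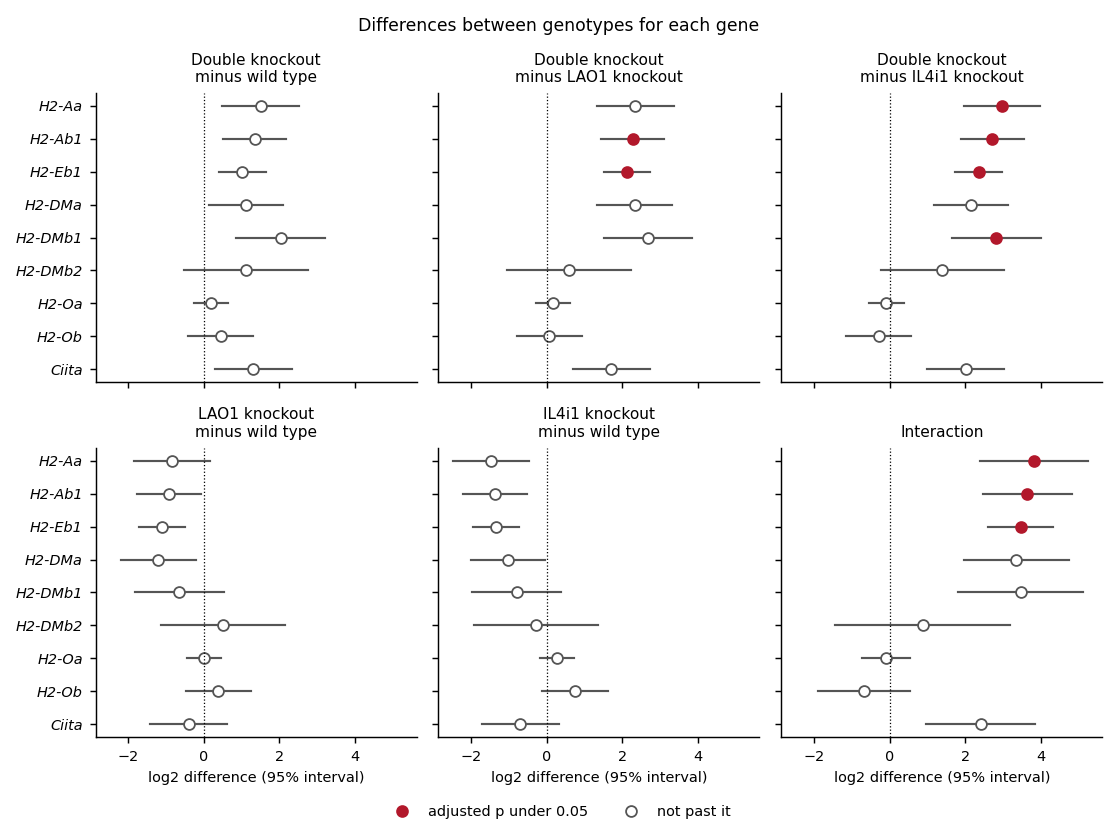
Log2 difference of each gene with its 95% interval in the 6 comparisons, from 1 limma fit over all probes (filled points passed an adjusted p of 0.05, open points did not). Filled points appear for H2-Aa, H2-Ab1, H2-Eb1 and H2-DMb1, only where the double knockout is set against a single knockout and in the interaction.

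The interaction tests whether the double knockout differs from what the single losses add up to on the log2 scale. For H2-Aa the double knockout stood at 1.51 relative to the wild type, while the single differences summed to -2.31. For H2-Ab1 the double knockout stood at 1.35 against a sum of -2.29, and for H2-Eb1 at 1.02 against -2.44. The sign of the double loss was thus opposite to that of the sum. These 3 members passed limma's interaction test, with 3.82 for H2-Aa (SE 0.66, adjusted p = 0.0331), 3.64 for H2-Ab1 (SE 0.55, adjusted p = 0.0106) and 3.47 for H2-Eb1 (SE 0.40, adjusted p = 0.00202), as did 0.207% of all probes in the higher direction.

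H2-DMb1 (3.47, SE 0.77, adjusted p = 0.148), H2-DMa (3.36, SE 0.65, adjusted p = 0.0650) and Ciita (2.41, SE 0.67, adjusted p = 0.294) had positive interactions that did not pass. At an unadjusted p under 0.05 there were 6 members, against 3.87% of all probes. H2-Ob (-0.68, 95% interval -1.90 to 0.55), H2-Oa (-0.09, -0.73 to 0.55) and H2-DMb2 (0.88, -1.44 to 3.2) had intervals that span 0. H2-Ab1 and H2-Eb1 passed in each of the 17 settings run, with adjusted p up to 0.0412 and 0.0119. H2-Aa passed in 7 of the 17 and failed when any wild type array, double knockout replicate 1 or 3, or replicate 2 or 3 of either single knockout was left out (adjusted p from 0.0533 to 0.104), and with quantile normalization (0.0511). Without double knockout replicate 1 or IL4i1 knockout replicate 2, 2 members passed the interaction test, and without double knockout replicate 2, 4 did.

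**Figure D3:**
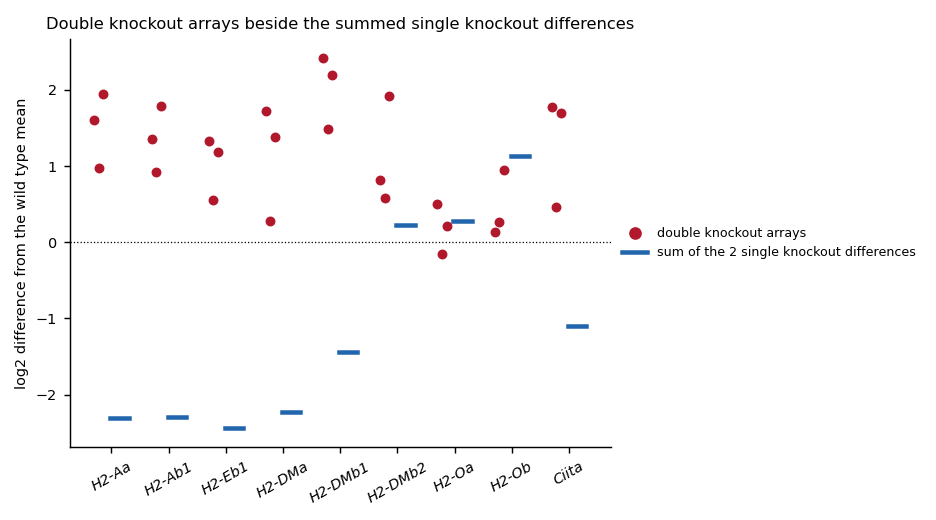
Log2 difference from the wild type mean for the 3 double knockout arrays (points) and the sum of the 2 single knockout differences (bars), per gene. For H2-Aa, H2-Ab1, H2-Eb1, H2-DMa, H2-DMb1 and Ciita every point lies above 0 and the bar below it (-2.44 to -1.10).

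How the members moved together was described across the 12 arrays. Among H2-Aa, H2-Ab1, H2-Eb1, H2-DMa, H2-DMb1 and Ciita, the 15 pairwise Pearson correlations lay between 0.892 and 0.985. Ciita was set against each of the 8 other members, with permutation p-values adjusted over the 8 relations. Arrays were permuted across genotypes, so these p-values take in the differences between genotypes. Relations within genotypes were not tested. With H2-DMb1 it had r = 0.948 (permutation, adjusted p = 8e-05) and rho = 0.937 (adjusted p = 0.00032). With H2-Aa the values were r = 0.941 (permutation, adjusted p = 8e-05) and rho = 0.916 (adjusted p = 0.0004), and with H2-DMa r = 0.941 (permutation, adjusted p = 8e-05) and rho = 0.895 (adjusted p = 0.000453).

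The relations of H2-Ab1 (r = 0.925, rho = 0.818), H2-Eb1 (r = 0.892, rho = 0.881) and H2-DMb2 (r = 0.723, rho = 0.762) with Ciita also passed (permutation, adjusted p from 0.0001 to 0.0101). Those of H2-Oa (r = 0.413, rho = 0.392, permutation adjusted p = 0.210 and 0.242) and H2-Ob (r = 0.276, rho = 0.329, adjusted p = 0.393 and 0.299) did not. Without double knockout replicates 1 and 3, the arrays farthest from the median of Ciita, r was 0.884 for H2-DMb1, 0.887 for H2-Aa, 0.858 for H2-DMa, 0.850 for H2-Ab1, 0.755 for H2-Eb1 and 0.723 for H2-DMb2. For H2-Oa it dropped to 0.01. Once the genotype means were removed, r with Ciita lay between 0.681 and 0.921 for all 8 members, with H2-Oa at 0.757 and H2-Ob at 0.681. These values carry no test.

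**Figure D4:**
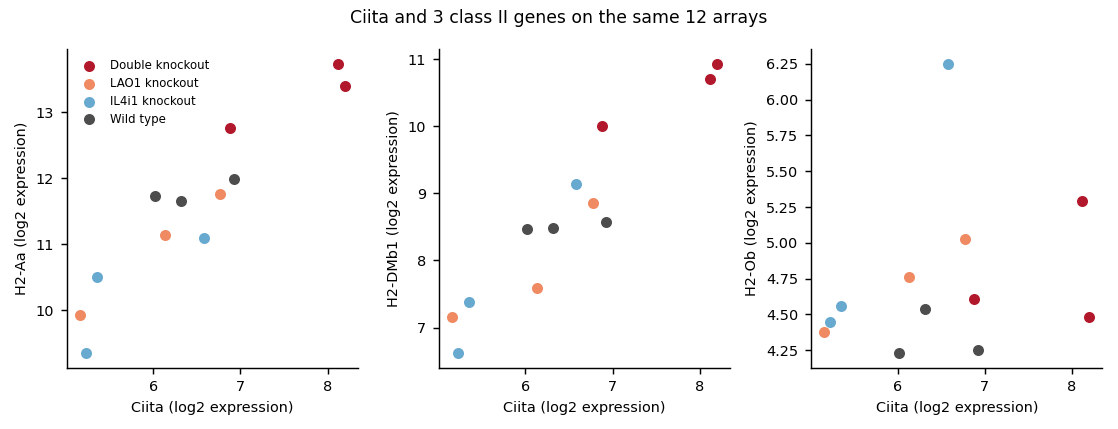
Log2 expression of H2-Aa, H2-DMb1 and H2-Ob (vertical) against Ciita (horizontal) on the 12 arrays, coloured by genotype. H2-Aa and H2-DMb1 climb with Ciita (r = 0.941 and 0.948), while for H2-Ob r is 0.276 and IL4i1 knockout replicate 1 stands alone at 6.25.

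Outside the list, the 8 genes with the highest Pearson correlation over the 12 arrays to the mean of H2-Aa, H2-Ab1 and H2-Eb1, out of 19496 named genes, were Tmem229b (0.959), Gbp9 (0.955), Samhd1 (0.952), Wars (0.948), H2-Q5 (0.947), H2-T10 (0.942), B2m (0.938) and Irgm2 (0.933). They were picked for this likeness, so the values carry no test.

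The other genes of the pathway were taken from lists chosen for their roles, of which 34 genes were measured. None passed in the double knockout against the wild type by limma (0 of 34), and their median difference was 0.04. At an unadjusted p under 0.05, 5 stood higher and 1 lower, where 3.63% of all probes stood higher. On the interferon gamma route to Ciita, the transcription factor Irf1 was at 13.84, 12.84 and 13.46 in the double knockout, 11.23, 11.82 and 10.72 in LAO1 knockout colons, 10.39, 10.5 and 10.89 in IL4i1 knockout colons, and 11.59, 10.78 and 12.39 in wild type colons. All double knockout arrays lay above the other 9. Irf1 rose by 2.79 (SE 0.39, adjusted p = 0.00533) against the IL4i1 knockout and passed the interaction test at 3.12 (SE 0.55, adjusted p = 0.0375), while against the wild type it stood at 1.79 (adjusted p = 0.259). Socs1, a feedback inhibitor of that route, rose by 1.70 (SE 0.28, adjusted p = 0.0158) against the IL4i1 knockout. Not all of the route rose. Over its 7 measured genes, the median difference of the double knockout from the wild type was 0.10, with 5 positive. The receptor gene Ifngr1 stood at -0.49 relative to the IL4i1 knockout (limma, adjusted p = 0.474), with an interaction of -0.83 (adjusted p = 0.554). The receptor gene Ifngr2 stood at -0.50 relative to the LAO1 knockout (adjusted p = 0.662).

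The co-inhibitory ligand Cd274 (PD-L1) was the third of these 34 genes to pass against the IL4i1 knockout, where 0.387% of all probes were called higher. By limma it rose there by 2.66 (SE 0.29, adjusted p = 0.000898) and passed the interaction test at 3.50 (SE 0.41, adjusted p = 0.00221). Its levels were 8.2, 7.35 and 7.2 in the double knockout, 5.9, 5.77 and 6.2 in LAO1 knockout colons, 5.29, 4.46 and 5.02 in IL4i1 knockout colons, and 6.46, 6.95 and 6.98 in wild type colons. No genotype overlapped another. The co-stimulatory ligand Cd80 stood 0.86 above the wild type in the double knockout (adjusted p = 0.515).

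The factors that CIITA sits on gave no calls. Of 7 measured genes for the RFX, NF-Y and CREB factors, 0 passed in any of the 6 comparisons by limma, and in the double knockout against the wild type 1 had an unadjusted p under 0.05, Creb1 at -0.68 (SE 0.23, adjusted p = 0.540). Rfxank stood at -0.58 (adjusted p = 0.742). Among 9 lysosomal genes, 0 passed in any comparison by limma (at an unadjusted p under 0.05, at most 2 higher and 1 lower), with Ifi30, the thiol reductase that unfolds antigens, at 0.45 (adjusted p = 0.678) and the protease gene Ctsh at -0.41 (adjusted p = 0.795) against the wild type. Marchf1 and Marchf8, ubiquitin ligases that take class II molecules off the surface, stood at -0.34 and 0.07 (adjusted p = 0.856 and 0.982). H2-Eb2, a further class II beta chain gene, stayed dim (3.14 to 4.21). Cd4 and Lag3, which bind class II molecules on T cells, stood at -0.37 and -0.08 (adjusted p = 0.804 and 0.965).

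The class I route, which shows peptides of the cell's own proteins to CD8+ T cells, was set beside these genes. Of its 9 measured genes, 0 passed in the double knockout against the wild type. At an unadjusted p under 0.05, 7 stood higher there, against 3.63% of all probes. By limma, 4 rose against the LAO1 knockout (0.122% of all probes called higher) and 7 against the IL4i1 knockout (0.387%). In the interaction 5 passed in the higher direction, against 0.207% of all probes. The peptide transporter gene Tap1 was at 12.47, 10.16 and 11.86 in the double knockout, 8.43, 7.82 and 7.59 in LAO1 knockout colons, 7.15, 6.68 and 7.44 in IL4i1 knockout colons, and 8.44, 9.12 and 9.91 in wild type colons, with an interaction of 5.62 (SE 0.72, adjusted p = 0.00308). The class I heavy chain gene H2-D1 had an interaction of 2.49 (SE 0.39, adjusted p = 0.0130). The median interaction was 2.53 over the class I genes and 3.36 over the class II genes, beside -0.04 over all probes; the lists were not tested against each other.

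Markers of the cells that make class II molecules were set beside these values. None of 10 dendritic cell, 11 macrophage or 11 B cell markers passed in any of the 6 comparisons by limma. Some dendritic cell and B cell probes lay low on the scale of the table. Of all probes, 5.08% had a lower mean than Flt3, 15.4% than Zbtb46, 9.48% than Fcrla and 18.2% than Cd22. For such dim probes the lack of a call says little about the number of cells. In the double knockout against the wild type, 0 dendritic cell markers had an unadjusted p under 0.05, 1 macrophage marker was lower (Mertk, -0.77) and 1 B cell marker higher (Fcer2a, 0.51), and the list medians ran from -0.34 for macrophages to 0.25 for B cells. The dendritic cell integrin gene Itgax stood at -0.37 (adjusted p = 0.834). In the interaction, 5 macrophage markers stood higher (3.87% of all probes) and 1 lower at that level, with a median of 0.98. In the IL4i1 knockout against the wild type 5 stood lower (4.34% of all probes), with a median of -0.66. With the IL4i1 knockout as reference, 3 stood higher in the double knockout (5.17% of all probes) and 1 lower, with a median of 0.51. The mean log2 level of the macrophage markers was 6.29 to 6.86 in double knockout arrays and 6.32 to 7.02 in wild type arrays. It was 6.02 to 6.41 in LAO1 knockout arrays, overlapping both. In IL4i1 knockout arrays it was 5.80 to 6.12, below both. The log2 of the summed macrophage signal was 10.15 to 11.1 in the double knockout, 10.17 to 10.47 in the LAO1 knockout, 10.04 to 10.22 in the IL4i1 knockout and 10.36 to 11.44 in the wild type. For dendritic cells the ranges were 8.16 to 8.23, 7.91 to 8.19, 7.96 to 8.13 and 7.96 to 8.16 in the same order of genotypes. The part of these cells in the class II values was not tested.

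T cells, which read class II molecules, and group 3 innate lymphoid cells were followed by their markers too. Of 9 T cell markers, 0 passed by limma in any of the 6 comparisons. In the double knockout against the wild type 7 were positive, with a median of 0.44. At an unadjusted p under 0.05, 2 stood higher there, against 3.63% of all probes. They were Cd3e of the T cell receptor complex (0.64, adjusted p = 0.612) and the cytokine receptor gene Il7r (0.84, adjusted p = 0.632). The mean log2 level of these markers was 4.67 to 5.23 in the double knockout, 4.39 to 4.65 in LAO1 knockout colons, 4.49 to 4.82 in IL4i1 knockout colons and 4.54 to 4.78 in wild type colons. Of 4 markers of group 3 innate lymphoid cells, 0 passed in any comparison. In the double knockout against the wild type 1 stood higher (Il22, 0.61) at an unadjusted p under 0.05, against 3.63% of all probes. Il22 was dim on all arrays (2.28 to 3.54), with 8.43% of all probes lower in mean, so its difference says little. At the same level 2 stood lower (Il1r1, -1.30, and Ncr1, -0.52). Their mean level was 4.45 to 5.10 in the double knockout and 4.995 to 5.28 in wild type colons. The part of these cells in the class II values was not tested either.

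Within each single knockout, the mean of the B cell markers peaked on replicate 1, as did every member except H2-Oa. H2-Oa peaked there among IL4i1 knockout arrays (3.64) but not among LAO1 knockout arrays (3.33, against 3.5 on replicate 3). The B cell marker Fcer2a did not peak there. Its LAO1 knockout values were 6.75 on replicate 1 and 7.27 on replicate 3. Its IL4i1 knockout values were 7.17 and 7.35 on these replicates. The mean log2 level of the 11 B cell markers was highest in IL4i1 knockout replicate 1 (5.44) and LAO1 knockout replicate 1 (5.32), with 4.10 to 4.77 in the double knockout, 3.84 and 4.51 in the other LAO1 knockout arrays, 4.11 and 4.31 in the other IL4i1 knockout arrays, and 3.99 to 4.28 in the wild type. The same 2 arrays held the highest and the third highest H2-DMb2 value (7.52 and 6.87), and IL4i1 knockout replicate 1 the highest H2-Ob value. For H2-Ob, LAO1 knockout replicate 1 (5.03) lay below double knockout replicate 3 (5.29). For H2-Aa, the replicates 1 stood at 11.76 (LAO1 knockout) and 11.1 (IL4i1 knockout), below every double knockout array. The mean of 5 lymphoid follicle genes was highest there too, at 6.23 in LAO1 knockout replicate 1 and 6.11 in IL4i1 knockout replicate 1, against 4.76 to 5.68 elsewhere. Within each single knockout Cxcl13 (10.72 and 9.9), Ccl21a and Ltb were highest on replicate 1, but Ccl19 and Madcam1 were not. The follicle chemokine gene Cxcl13 stood at 0.66 in the double knockout against the wild type (95% interval -1.96 to 3.27). The part of lymphoid tissue in these values was not tested. Of 10 epithelial markers, none passed by limma in the 6 comparisons, and 0 reached an unadjusted p under 0.05; the junction gene Cldn7 stood at 0.77 in the double knockout against the wild type (adjusted p = 0.758).

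**Figure D5:**
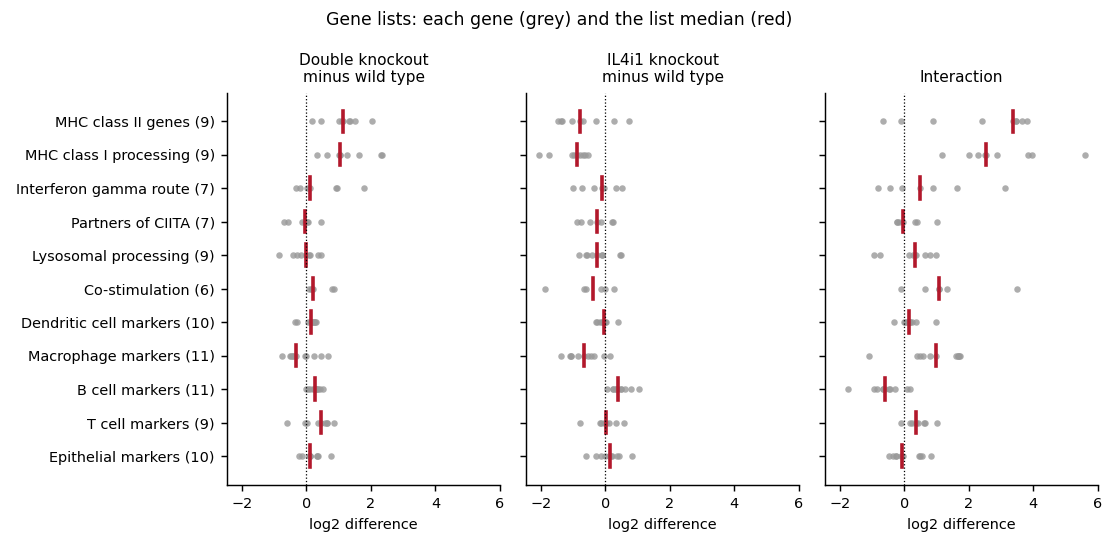
Log2 difference of each gene (grey points) and the list median (red bars) for the class II genes and 10 other lists, in the double knockout against the wild type, the IL4i1 knockout against the wild type and the interaction; numbers in brackets are genes measured. The class II and class I lists have interaction medians of 3.36 and 2.53, and no other list shown exceeds 1.07.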

How the data were processed

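Per the labels' protocols, 4 male mice were drawn at random for each genotype and total RNA was extracted from colonic tissue; whether an array held the RNA of 1 mouse is not given, so the p-values rest on array-to-array spread, which may be technical. The authors deposited log2 expression values per probe; Transcriptome Analysis Console is named in the submitters' processing notes, and the summarisation, normalization and genome build are not given in the sources used here. The array count limits precision. Gene symbols came from the platform annotation (19572 probes with 1 symbol, 0 with several, 2634 with none); each measured member had 1 probe, and all 9 matched RefSeq by Entrez number.

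Values were used as deposited. A single fit with limma 3.58.1 in R 4.3.3 (lmFit, eBayes, a mean per genotype, 12 arrays, 8 residual degrees of freedom) gave two-sided p-values, adjusted by Benjamini-Hochberg over 22206 probes with a threshold of 0.05. The interaction was the double knockout minus both single knockouts plus the wild type. The fit was tested on simulated data for the double knockout against the wild type only. Those data had independent probes and the same spread in every genotype. Permutation p-values used 100000 resamples (Python 3.11.15, numpy 2.4.6); figures used matplotlib 3.10.9. Members and lists were chosen with earlier results of these data known. All members were named, and, from each other pathway list, the 2 genes with the smallest p in the double knockout against the wild type; from marker lists, the gene with the largest difference. Some genes of these lists are not reported here. Genes named outside this rule were chosen after their values were seen. Alternatives were the compared arrays alone, a replicate block, quantile normalization, probes above the 40th percentile, trend and robust moderation, and leaving out each array.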

Additional observations from a re-analysis of the deposited data

Results flagged for a closer look

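For 3 members the effect of losing IL4i1 differed between colons with and without LAO1, by limma's interaction test over all probes. H2-Ab1 and H2-Eb1 passed in each of the 17 settings run, and H2-Aa in 7 of them. The interaction was 3.82 on the log2 scale for H2-Aa, 3.64 for H2-Ab1 and 3.47 for H2-Eb1. All 3 double knockout arrays lay above the 3 LAO1 knockout arrays for each gene, and all 3 IL4i1 knockout arrays lay below the 3 wild type arrays.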

How the results depend on the processing

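In the double knockout against the wild type 0 members passed under every alternative run, and in either single knockout against the wild type likewise. With only the compared arrays, 1 member passed against the LAO1 knockout (2 in the fit over all arrays) and 2 against the IL4i1 knockout (against 4). With the replicate number as a block 5 passed against the LAO1 knockout and 5 in the interaction (against 3). Deviations correlated above 0.1 in 7 of 18 pairs of arrays with the same number (median r 0.061). Among pairs with different numbers, 9 of 36 did so (median r -0.035). Of 12 arrays, 5 were most like an array of their own number. The labels name no batch, and whether the number stands for one was not tested. Leaving out 1 array at a time gave 0 to 3 members against the LAO1 knockout, 2 to 6 against the IL4i1 knockout, 2 to 5 in the interaction, and 1 to 4 members at an unadjusted p under 0.05 in the LAO1 knockout against the wild type. The interaction held 5 members without IL4i1 knockout replicate 1. The sign turned, for genes that had not passed, in these ranges: against the LAO1 knockout H2-Ob -0.18 to 0.23; against the IL4i1 knockout H2-Ob -0.61 to 0.29 and H2-Oa -0.24 to 0.0883; in the LAO1 knockout against the wild type H2-Oa -0.09 to 0.12, H2-DMb2 -0.23 to 1.07 and Ciita -0.78 to 0.03; in the IL4i1 knockout against the wild type H2-DMb2 -1.12 to 0.65; in the interaction H2-Oa -0.25 to 0.0817 and H2-DMb2 -0.0567 to 1.71. With quantile normalization H2-Oa turned to -0.0164 in the LAO1 knockout against the wild type, and H2-Aa missed the threshold in the interaction (adjusted p = 0.0511). Over all probes, the counts past the threshold ran from 1 to 38 for the double knockout against the wild type (5), 11 to 68 against the LAO1 knockout (31), 33 to 174 against the IL4i1 knockout (106), 1 to 4 and 2 to 8 for the LAO1 and the IL4i1 knockout against the wild type (1 and 3), and 37 to 74 in the interaction (51). The cause of these shifts was not tested. H2-Oa fell outside the bright probes and has no value there, and no member had a second probe to try.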
